A study of Bos taurus with 6 samples.

Results

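The genes described here carry symbols that start with NDUF and encode subunits and assembly factors of respiratory complex I. Members are the genes with such a symbol among probe sets whose platform annotation names exactly 1 gene, and the rule itself uses no breed difference. The array held 42 such genes in 57 probe sets, among 9155 genes and 24016 probe sets in all. For each gene the brightest probe set, by mean log2(signal + 16), was used, and the other probe sets of the same gene are given beside it. All 42 genes were bright enough there to be tested, as were 53 of the 57 probe sets. By role, 6 nuclear-encoded catalytic core subunits, 30 accessory subunits, 4 assembly factors and 2 further genes were measured. The assembly factors NDUFAF1, NDUFAF2, NDUFAF4 and NDUFAF7 were not analysed here.

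The samples were longissimus dorsi, a long back muscle, from 3 Japanese Black steers and 3 Holstein steers, with 1 array per animal. Holstein is a dairy breed, while Japanese Black is raised for its marbled beef. All 6 animals were male and received energy-rich feed, so the comparison is between breeds and holds no steer on another feed. Whole tissue was used, so fewer cells of a type and less RNA per cell cannot be told apart. Where nothing else is said, a difference is that of the log2(signal + 16) means, Japanese Black minus Holstein, and animals are named by breed and number.

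Complex I, or NADH:ubiquinone oxidoreductase, is where most electrons from NADH enter the mitochondrial respiratory chain. Its N module oxidises NADH, its Q module passes the electrons along iron-sulfur clusters to ubiquinone, and its membrane arm pumps protons that drive ATP synthesis. The catalytic core is surrounded by accessory subunits that stabilise it, the subunits come from both the nuclear and the mitochondrial genome, and assembly factors join them module by module. Skeletal muscle draws on the complex for sustained work, and slow, oxidative fibres hold more mitochondria than fast ones.

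The arrays were alike in median signal, between 48.5 and 54.7 intensity units over the Japanese Black animals and between 50.8 and 52.7 over the Holstein animals. Japanese Black 3 had the highest upper quartile of signals, 205, where the other animals lay between 172 and 181. Of 14 listed markers of skeletal muscle fibres 11 were measured, and their summed signal was 141531 to 149433 in Japanese Black and 142888 to 144476 in Holstein, with no marker at 0. The 3′ to 5′ ratio of the actin control, a sign of RNA quality and labelling, was 1.11, 1.14 and 1.13 in Japanese Black against 1.07, 1.05 and 1.003 in Holstein, without overlap. That of the GAPDH control overlapped, at 0.928, 0.862 and 0.858 in Japanese Black against 0.884, 0.819 and 0.796 in Holstein. The spiked bioB control averaged 494 in Holstein 3 and 273 to 329 in the other arrays. The part of these array values in the results below was not tested.

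Complex I genes differed little between the breeds at their brightest probe sets. None of the 42 passed an adjusted p of 0.05 in limma, where 2 of 8050 genes did (0.0248%); 1, higher in Japanese Black, had an unadjusted p under 0.05, against 11.3% of all genes tested (5.84% higher and 5.42% lower), and 0 did in the methods' t-test. The smallest adjusted p was 0.395, for NDUFB5. A difference below 0 was found for 30 genes and above 0 for 12, with a median of -0.05, while 51.3% of all genes tested lay below 0 and 48.7% above, and their median was -0.01. The differences ran from -0.31 for NDUFS7 to 0.42 for NDUFB5. Their median size regardless of sign was 0.10, against 0.19 over all genes, and 0 of the 42 exceeded 0.5 in either direction, where 9.6% of all genes did. Here and below, all genes tested were not matched to the 42 in signal, and the part of brightness in such contrasts was not tested.

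The intervals, each for 1 gene and not adjusted for the number of genes, also show which sizes of difference these 6 arrays leave possible. At the brightest probe sets all 42 of the 95% intervals lay between -0.64 and 0.84, so none of them held a doubling or a halving on this scale. The interval of the dimmer NDUFS3 probe set, 0.996 to 2.03, did hold a doubling. For 32 genes the interval lay within 0.5 of zero in both directions. The median standard error was 0.13, against 0.18 over all genes tested. The breeds did not overlap for 1 gene, NDUFB5, against 19.2% of all genes (10.2% higher and 8.96% lower).

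**Figure D1:**
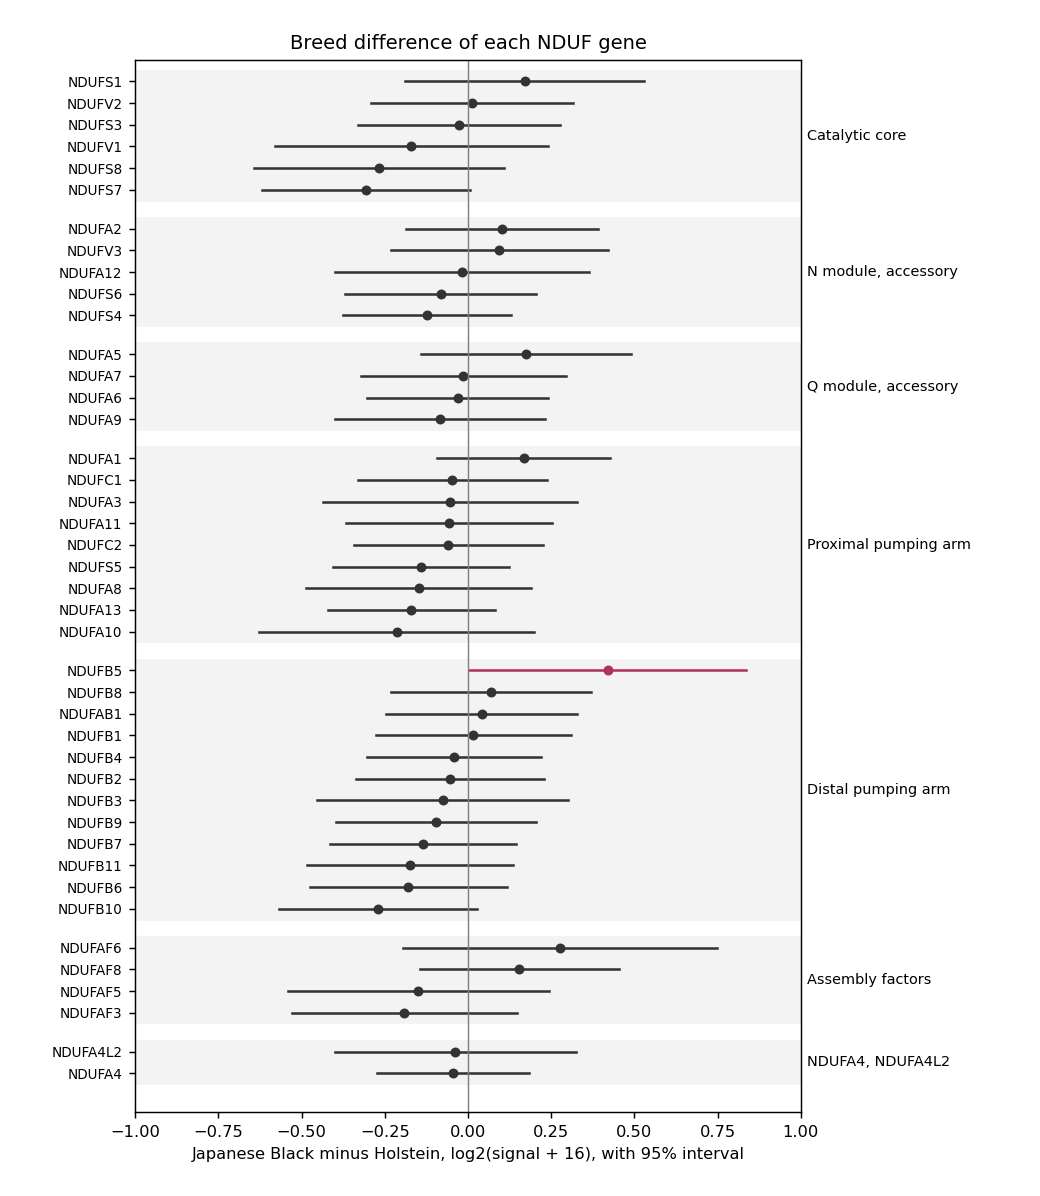
Breed difference (Japanese Black minus Holstein) of log2(signal + 16) for the 42 NDUF genes at each gene's brightest probe set, with limma's 95% interval. Genes are grouped by role; NDUFB5, drawn in red, is the gene whose breeds did not overlap, and all other intervals include 0.

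Among the measured catalytic core subunits, 4 of 6 genes had a difference below 0 and 2 above, with a median of -0.10. NDUFS7, which holds the cluster that hands electrons to ubiquinone, read 3220, 2866 and 3647 in the Japanese Black animals, against 3541, 4301 and 4194 in the Holstein animals. Its difference of -0.31 (SE 0.14) was the most negative among the 42 genes and did not pass (adjusted p 0.402). The breeds overlapped because Japanese Black 3 lay above Holstein 1. NDUFS8, a neighbouring iron-sulfur subunit, read 1820, 1565 and 2238 in Japanese Black, against 2025, 2175 and 2533 in Holstein. Its difference of -0.27 (SE 0.17) came with the same order within Japanese Black, animal 2 lowest and animal 3 highest.

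NDUFV1, which binds NADH and the flavin, had signals of 1174, 955 and 1383 in Japanese Black, against 1331, 1119 and 1490 in Holstein. Its partner NDUFV2, which carries an iron-sulfur cluster, had signals of 5098, 4942 and 6534 in Japanese Black, against 5396, 5843 and 5095 in Holstein. The differences were -0.17 (SE 0.18) and 0.01 (SE 0.13), and the breeds overlapped for both genes. NDUFS1, the large iron-sulfur subunit of the N module, read 1918, 1972 and 2434 in Japanese Black, against 2049, 1990 and 1579 in Holstein. Here Holstein 3 was the lowest animal and Japanese Black 3 the highest, while the remaining 4 differed by little, and the difference was 0.17 (SE 0.16). NDUFS3, a core subunit of the Q module, read 3715, 3286 and 4052 in Japanese Black, against 3728, 3367 and 4169 in Holstein. The breeds were nearly the same at this probe set, with a difference of -0.03 (SE 0.13), whereas its dimmer probe set differed, as described with the other probe sets.

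The accessory subunits of the N module had a median difference of -0.02 over 5 genes, with 2 above and 3 below 0. NDUFA2 read 4428, 4116 and 5215 in Japanese Black, against 4287, 3958 and 4523 in Holstein. NDUFV3 read 1953, 1916 and 2126 in Japanese Black, against 1599, 2096 and 1949 in Holstein. Both overlapped, with differences of 0.10 and 0.09. NDUFS4 and NDUFS6, subunits needed to complete the N module, had differences of -0.12 and -0.08, and NDUFA12 one of -0.02.

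The accessory subunits grouped with the Q module had a median of -0.02 over 4 genes. NDUFA5 read 1781, 1729 and 1775 in Japanese Black, against 1729, 1621 and 1353 in Holstein. Japanese Black 2 and Holstein 1 were within a unit of each other, and Holstein 3 lay apart below the rest (difference 0.17, SE 0.14). NDUFA7 read 3368, 2963 and 3980 in Japanese Black, against 3308, 3458 and 3579 in Holstein, a difference of -0.01. NDUFA6, which docks the acyl carrier protein, had a difference of -0.03 and NDUFA9 one of -0.08.

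In the proximal part of the pumping arm 8 of 9 accessory subunits had a difference below 0, with a median of -0.06. NDUFA13, also known as GRIM19, read 4950, 5154 and 5942 in Japanese Black, against 6045, 5791 and 6174 in Holstein. Only Japanese Black 3 reached the Holstein range, and the difference was -0.17 (SE 0.11). NDUFS5 showed the same arrangement, with 3147, 3132 and 3523 in Japanese Black against 3526, 3441 and 3850 in Holstein, a difference of -0.14. The exception was NDUFA1, a small membrane subunit, which read 7874, 8256 and 9633 in Japanese Black against 7646, 8201 and 7036 in Holstein. Its difference was 0.17 (SE 0.11), and Japanese Black 1 lay below Holstein 2. The other members were NDUFA10 (-0.21), NDUFA8 (-0.15), NDUFC2 (-0.06), NDUFA11 (-0.06), NDUFA3 (-0.05) and NDUFC1 (-0.05).

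The distal part of the pumping arm held both the most positive gene and several of the more negative ones, with 8 of 12 genes below 0 and a median of -0.07. NDUFB5, a single-pass membrane subunit, read 2742, 2679 and 3294 in Japanese Black, against 2415, 2532 and 1644 in Holstein. All Japanese Black animals were above all Holstein animals, and the widest gap was to Holstein 3. The difference was 0.42 (SE 0.18; 95% interval 0.003 to 0.84), with an unadjusted p of 0.0486 and an adjusted p of 0.395 from limma. Without Holstein 3 it was 0.22.

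NDUFB10, a subunit on the outer face of the inner membrane, read 4800, 5017 and 6321 in Japanese Black, against 5959, 6599 and 6803 in Holstein. Japanese Black 1 and 2 lay below every Holstein animal and Japanese Black 3 within their range, for a difference of -0.27 (SE 0.13, adjusted p 0.429). NDUFB6 read 4466, 3781 and 5099 in Japanese Black, against 5038, 5131 and 4848 in Holstein. NDUFB11, whose gene is X-linked in mammals, read 3054, 2984 and 3337 in Japanese Black, against 3493, 3076 and 4084 in Holstein. These differences were -0.18 and -0.18, and the breeds overlapped for both. The remaining members of this group lay between -0.14 for NDUFB7 and 0.07 for NDUFB8, with NDUFB9 at -0.10, NDUFB3 at -0.08, NDUFB2 at -0.05, NDUFB4 at -0.04 and NDUFB1 at 0.02. NDUFAB1, the mitochondrial acyl carrier protein, which also serves fatty acid and lipoate synthesis, had a difference of 0.04.

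Of the 4 assembly factors 2 had a difference above 0 and 2 below. NDUFAF6, which acts early in assembly, read 157, 203 and 202 in Japanese Black, against 173, 176 and 112 in Holstein. Holstein 3 was again the lowest animal, the difference was 0.28 (SE 0.21), and without that animal it was 0.09. NDUFAF8 read 1356, 1264 and 1335 in Japanese Black, against 1113, 1175 and 1265 in Holstein. Japanese Black 2 and Holstein 3 almost coincided and the other animals were on separate sides, for a difference of 0.15 (SE 0.13). NDUFAF3, which takes part in building the Q module, read 1029, 903 and 1010 in Japanese Black, against 1091, 1012 and 1272 in Holstein, a difference of -0.19. NDUFAF5, an enzyme that modifies NDUFS7 in human cells, had a difference of -0.15. NDUFAF8 is its binding partner there, and the pair lay on opposite sides of 0, though neither passed.

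The symbol rule also took in a pair of genes that are not counted as complex I subunits. NDUFA4, now assigned to cytochrome c oxidase, read 9654, 9351 and 11205 in Japanese Black, against 10179, 10582 and 10296 in Holstein. Its paralogue NDUFA4L2, known as a hypoxia-inducible gene, was dim, at 61.0, 46.3 and 46.3 in Japanese Black against 55.9, 51.3 and 50.8 in Holstein. Both differences were -0.04, and the breeds overlapped.

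**Figure D2:**
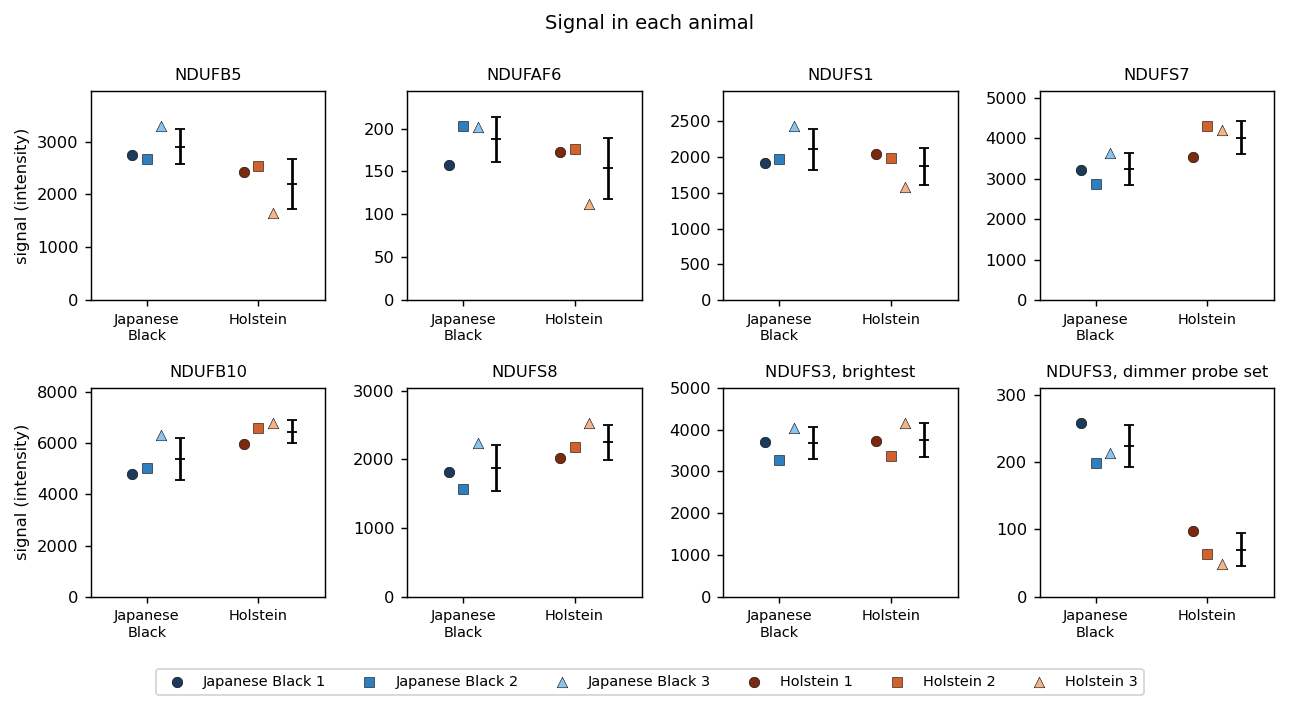
Signal (linear intensity) of 7 NDUF genes in each animal, with the mean and SD of each breed (n = 3) as bars beside the points; NDUFS3 is shown at both of its probe sets. NDUFB5 and the dimmer NDUFS3 probe set are the panels in which no Japanese Black animal falls into the Holstein range.

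Animals of the same breed also differed, and many complex I genes were low or high in the same animals. The deviation of each gene from its own mean over the 6 arrays had a median of -0.08, -0.14 and 0.14 in Japanese Black 1, 2 and 3, and of 0.02, 0.03 and 0.04 in Holstein 1, 2 and 3. With the deposited values Japanese Black thus held both the lowest and the highest animals, with the Holstein animals between them. Over all genes tested the median deviation was -0.06, -0.03 and 0.10 in Japanese Black 1, 2 and 3. It was -0.004, 0.005 and 0.03 in Holstein 1, 2 and 3, so the lowest and highest animals were Japanese Black there too. Japanese Black 2 was the lowest of the 6 animals for 22 of the 42 genes, or 52.4%, where it was lowest for 19.3% of all genes tested. Japanese Black 3 was the highest for 20 genes, or 47.6%, against 32.0% of all genes, and Holstein 3 for 13, or 31.0%, against 26.9%. The within-breed SD was larger in Japanese Black for 27 of 42 genes, for 37 of 45 genes of complexes II to V and for 3942 of 8050 genes in all.

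The order of the animals depended on how the arrays were scaled. After quantile normalization the median deviation was -0.02, -0.11 and 0.02 in Japanese Black 1, 2 and 3, and 0.03, 0.01 and 0.10 in Holstein 1, 2 and 3, so Holstein 1 and 3 lay above every Japanese Black animal. Japanese Black 2 was then lowest for 26 of 42 genes, or 61.9%, against 17.3% of all genes. Japanese Black 3 was highest for 9, or 21.4%, against 16.7% of all genes, and Holstein 3 for 19, or 45.2%, against 33.5%. After median centring the medians of Japanese Black 2 and 3 were -0.08 and 0.06, and that of Holstein 3 was 0.05. Japanese Black 2 was then lowest for 13 genes, or 31.0%, against 13.6% of all genes, and Japanese Black 3 and Holstein 3 were highest for 16 genes each, or 38.1%, against 21.5% and 28.8% of all genes.

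The breeds did not overlap for 9 of 42 genes after quantile normalization, 7 lower and 2 higher in Japanese Black, against 19.3% of all genes under that scaling. They did not overlap for 7 of 42 after median centring, 5 lower and 2 higher, against 19.9% of all genes. Both totals lay near these shares, which take both directions together. Shares of all genes by direction are not given for these scalings, so the 7 and 5 lower genes have none beside them. Of all genes 55.8% lay below 0 after quantile normalization and 49.0% after median centring.

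**Figure D3:**
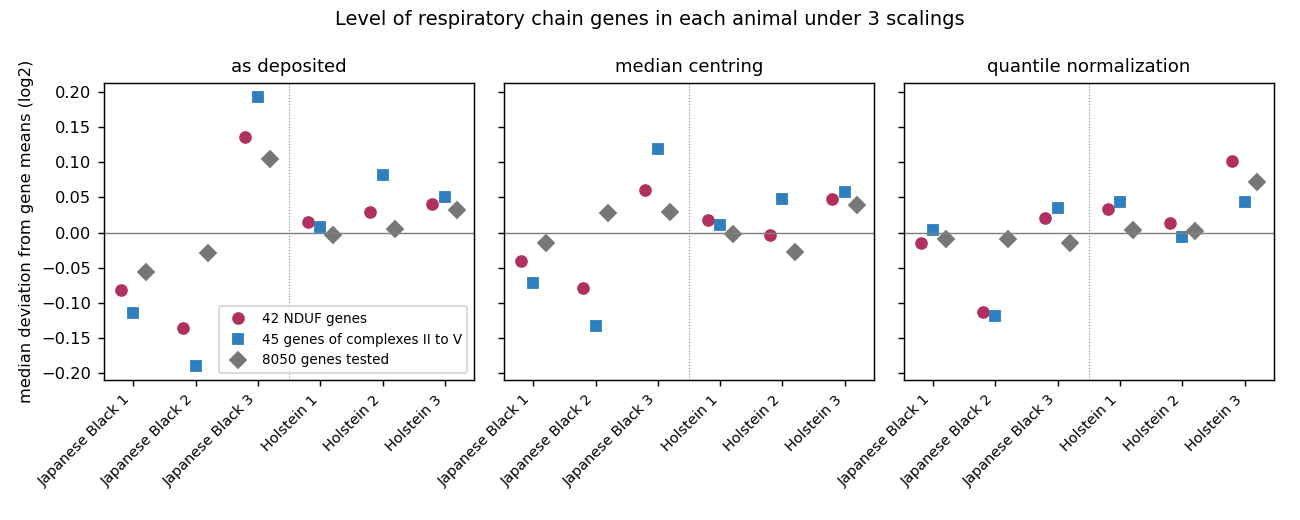
Median deviation from the gene means (log2) in each animal, for the 42 NDUF genes, 45 genes of complexes II to V and all 8050 genes tested, with the deposited values and under 2 other scalings. Japanese Black 2 has the lowest NDUF median in all 3 panels, while the height of Japanese Black 3 shrinks from 0.14 with the deposited values to 0.02 after quantile normalization.

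Single animals set the counts. Without Japanese Black 3 the median difference was -0.14, against -0.05 over all genes tested. In that fit 33 of the 42 genes lay below 0, against 57.3% of all genes. At an unadjusted p under 0.05 there were then 6 genes, NDUFA8, NDUFA13, NDUFB6, NDUFB10, NDUFS7 and NDUFS8, against 10.6% of all probe sets tested. No overlap between breeds was found for 20 of the 42, 19 lower and 1 higher in Japanese Black, where 33.2% of all genes did not overlap in either direction. Without Japanese Black 2 the median was 0.01, with 20 genes below 0 and 22 above. With Japanese Black 1 left out 6 of 42 did not overlap (30.5% of all genes), and with Japanese Black 2 left out 3 did not (27.1%). With Holstein 1, 2 or 3 left out the counts were 5, 9 and 2, against 30.3%, 33.8% and 24.4% of all genes. In these 5 fits the members' share was thus below that of all genes. The adjusted threshold was passed by 0 of 42 genes in each of these 6 fits, with a smallest adjusted p of 0.301.

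The differences of single members also rested on single animals. Without Holstein 3 the difference was 0.05 for NDUFS1, 0.07 for NDUFA5, 0.11 for NDUFA1, -0.07 for NDUFB11, -0.10 for NDUFAF3, -0.09 for NDUFS5, -0.18 for NDUFS8 and -0.08 for NDUFV1. Without Japanese Black 2 it was -0.03 for NDUFV1, -0.07 for NDUFB6 and -0.15 for NDUFS8. Without Japanese Black 3 it was 0.0065 for NDUFA2, 0.05 for NDUFV3, 0.06 for NDUFS1 and 0.08 for NDUFA1. NDUFA2 was at 0.05 without Holstein 2, and NDUFV3 at -0.02 without Holstein 1. In each of these fits the named difference was smaller by over 1.5 times than on all 6 arrays. It was larger by over 1.5 times without Japanese Black 3 for NDUFS8 (-0.40), NDUFB6 (-0.28) and NDUFV1 (-0.30), without Holstein 2 for NDUFB11 (-0.27), NDUFV1 (-0.28) and NDUFV3 (0.18), and without Japanese Black 2 for NDUFA2 (0.18).

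Markers of fibre types and other cells varied between the same animals. The summed signal of 7 slow fibre markers was 71657, 64753 and 74705 in Japanese Black 1, 2 and 3, against 68978, 69671 and 69149 in the Holstein animals, so Japanese Black 2 was lowest and Japanese Black 3 highest here too. That of 6 fast fibre markers was 70557, 71432 and 69797 in Japanese Black, against 72771, 71231 and 70532 in Holstein. The 8 adipocyte markers summed to 6314, 6294 and 21030 in Japanese Black, against 12099, 14865 and 3029 in Holstein, and the 7 smooth muscle markers to 4151, 3933 and 12443 in Japanese Black, against 4657, 8951 and 5629 in Holstein. Fibroblast markers (8 of 8 measured) ranged from 7127 to 12592 in Japanese Black and from 9527 to 10455 in Holstein, with the extremes again in Japanese Black 2 and 3. Endothelial markers (10 of 10) ranged from 2214 to 3299 in Japanese Black and from 3094 to 3885 in Holstein, and leukocyte markers (9 of 10) from 492 to 729 in Japanese Black and from 538 to 827 in Holstein. Erythrocyte markers (5 of 6) ranged from 3668 to 4893 in Japanese Black and from 3298 to 4026 in Holstein, and Schwann cell markers (3 of 6) from 1483 to 2863 in Japanese Black and from 1027 to 1484 in Holstein. Sums follow their brightest markers, so the signs of single differences were counted too. Above and below 0 lay 7 and 4 skeletal muscle fibre, 6 and 1 slow fibre and 3 and 3 fast fibre markers. Adipocyte markers split 5 and 3, and smooth muscle markers 3 and 4. The counts were 2 and 6 for fibroblast, 1 and 9 for endothelial and 5 and 4 for leukocyte markers. They were 1 and 4 for erythrocyte (median -0.22) and 1 and 2 for Schwann cell markers (median -0.19). Both of these sums reached higher in Japanese Black. Among fibre markers the breeds did not overlap for 4 of 11 skeletal muscle fibre (3 higher, 1 lower), 3 of 7 slow (2 and 1) and 2 of 6 fast (1 and 1). Over all genes tested the share was 19.2% (10.2% higher and 8.96% lower), and these lists share some genes. Slow fibre differences ran from -1.29 to 0.30. No measured marker had a signal of 0 in any animal. The part of these markers in the level of the complex I genes was not tested.

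Not all members followed the shared pattern. Holstein 3 was the highest animal for 13 genes, among them NDUFA10, NDUFS8, NDUFB11, NDUFAF3 and NDUFV1, and the lowest for 6, namely NDUFB5, NDUFAF6, NDUFS1, NDUFA5, NDUFA1 and NDUFAB1. In that animal the deviation was -0.60 for NDUFB5 and -0.52 for NDUFAF6, the lowest of any gene and animal, and 0.36 for NDUFA10 and 0.31 for NDUFS8. Over all genes tested Holstein 3 was highest for 26.9% and lowest for 24.6%. The range over the 6 animals ran from 0.23 for NDUFB4 to 0.995 for NDUFB5, with a median of 0.40 against 0.64 over all genes.

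**Figure D4:**
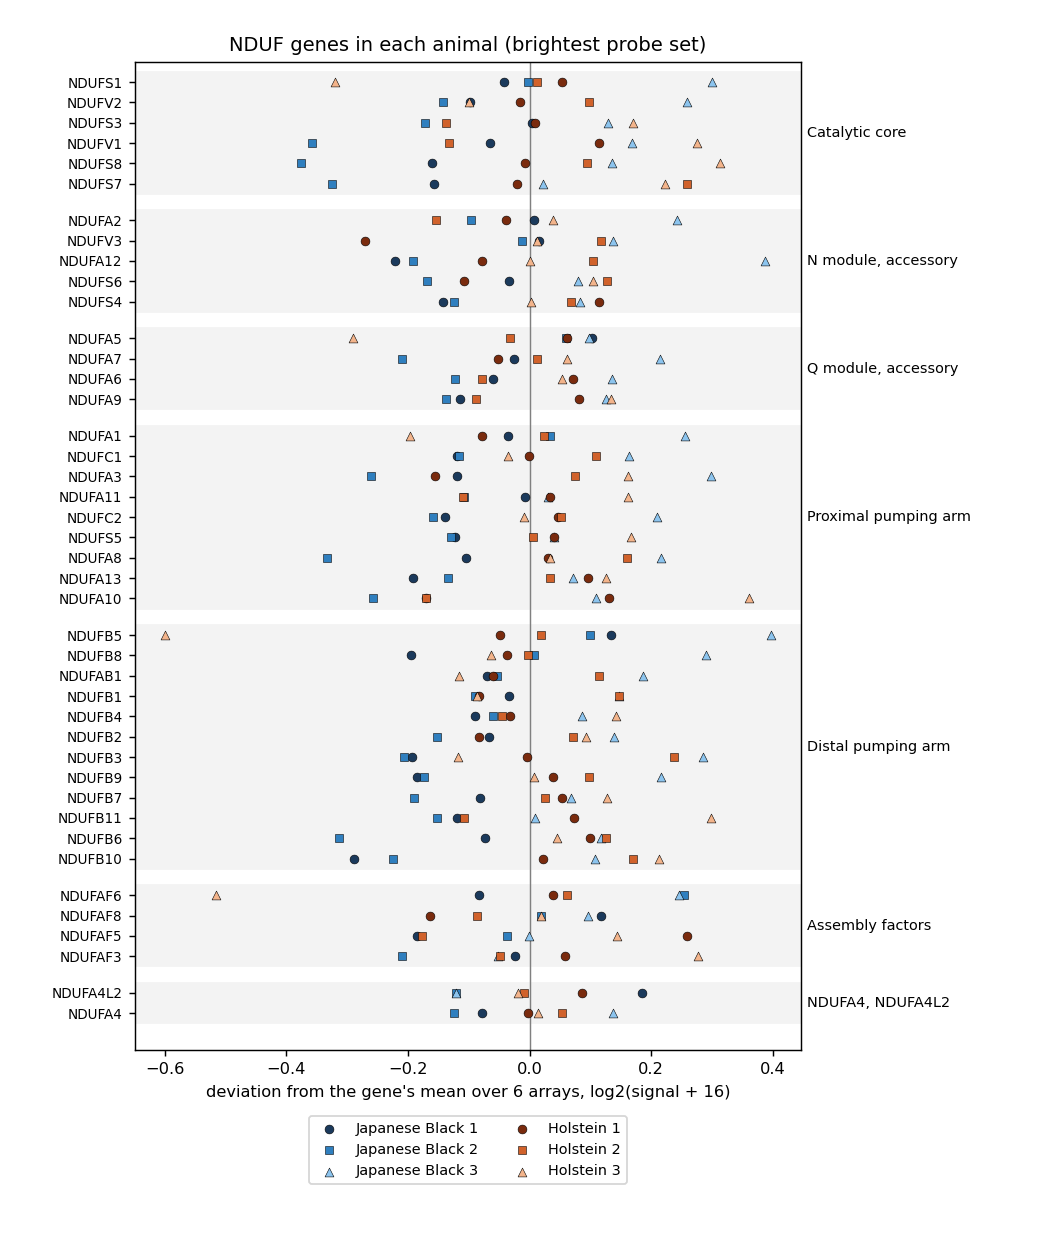
Deviation of each of the 42 NDUF genes from its own mean over the 6 arrays, on the log2(signal + 16) scale, with 1 symbol per animal and genes grouped by role. Japanese Black 2 lies at the left end for 22 genes and Japanese Black 3 at the right end for 20, and Holstein 3 lies far to the left for NDUFB5 and NDUFAF6.

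For 12 genes there was more than 1 probe set, which gave 15 further probe sets, 11 of them bright enough to be tested. The clearest disagreement was in NDUFS3. Its dimmer probe set read 258, 198 and 213 in Japanese Black against 97.2, 63.3 and 48.8 in Holstein, with no overlap. The difference there was 1.51 (SE 0.23; unadjusted p 9.85e-05, adjusted p 0.107), against -0.03 at the brightest probe set, and it did not pass the adjusted threshold. The breed values at the dimmer probe set averaged 223 ± 31.3 in Japanese Black and 69.8 ± 24.8 in Holstein (SD, n = 3 each).

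NDUFAB1 also had a dim probe set with no overlap, at 35.8, 35.9 and 46.4 in Japanese Black against 23.1, 23.1 and 24.9 in Holstein. Its difference was 0.47 (SE 0.15, adjusted p 0.325), against 0.04 at the brightest. In NDUFA5 the dimmest of 3 probe sets did not overlap either, at 76.7, 66.1 and 88.0 in Japanese Black against 61.2, 66.0 and 58.7 in Holstein, although Japanese Black 2 and Holstein 2 were within a unit of each other. The middle NDUFA5 probe set read 1307, 1529 and 1369 in Japanese Black against 1444, 1360 and 1702 in Holstein. Holstein 3 was thus the lowest animal at the brightest NDUFA5 probe set and the highest at the next one. The second NDUFA4L2 probe set read 26.9, 18.1 and 30.0 in Japanese Black against 36.8, 35.1 and 34.9 in Holstein, lower in Japanese Black without overlap (difference -0.34, adjusted p 0.424).

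The second NDUFA7 probe set was too dim to be tested, with signals of 16.3, 7.81 and 20.9 in Japanese Black against 15.2, 0.06 and 0.02 in Holstein, where the offset sets the size of any difference. For NDUFS1 the next probe set showed the low value of Holstein 3 again, with 332, 276 and 344 in Japanese Black against 316, 326 and 158 in Holstein. In all, 10 of the 15 further probe sets had the sign of the brightest and 5 the opposite one. At an unadjusted p under 0.05 there were 2 of the 11 tested, those of NDUFS3 and NDUFAB1, both higher, against 12.6% of all 18012 probe sets tested (7.31% higher). The breeds did not overlap for 4 of the 11, 3 higher and 1 lower, against 19.8% of all probe sets (11% higher and 8.84% lower). The adjusted threshold was passed by 0 of the 53 NDUF probe sets tested and by 0.0167% of all.

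The names of these probe sets differed in kind. Each carries a letter S or A, whose meaning is not given in the sources used here. All 42 of the brightest probe sets carried S, and 10 of the 15 others carried A. Of those 10, 8 had a difference above 0, whereas 30 of the 42 brightest lay below 0. Only 7 of the 10 were bright enough to be tested, and the 8 include those of NDUFB1 and NDUFA7, which were not. Over the whole array 52.2% of 5880 tested probe sets with an A and 50.4% of 12132 with an S lay above 0. The NDUFS3, NDUFAB1 and NDUFA5 probe sets that were higher without overlap all carried an A. They were 3 of the 7 tested NDUF probe sets with an A. Over the whole array 11.2% of tested probe sets with an A and 10.9% with an S were higher without overlap.

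**Figure D5:**
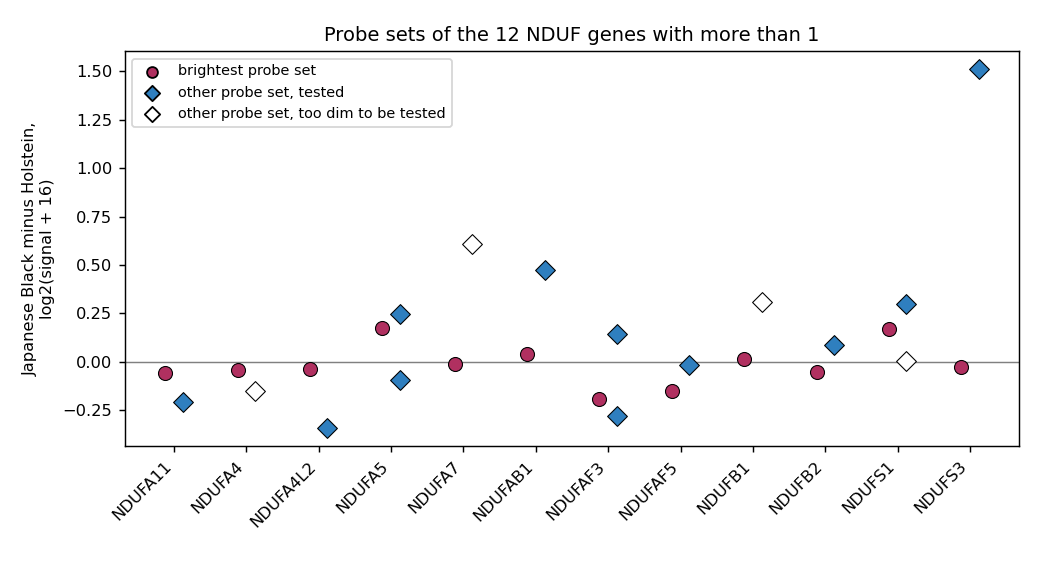
Breed difference (Japanese Black minus Holstein) of log2(signal + 16) at every probe set of the 12 NDUF genes that have more than 1. Circles are the brightest probe set of a gene and diamonds the others, open where the probe set was too dim to be tested; the NDUFS3 probe set at 1.51 stands apart from its brightest one at -0.03.

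Complex I assembly factors with other symbols were also looked at, of which 10 were measured. Of these 5 had a difference above 0 and 5 below, with a median of 0.002. Of these 0 passed in limma, and 2, FOXRED1 and ECSIT, had an unadjusted p under 0.05, against 11.3% of all genes tested. FOXRED1, an assembly factor of the membrane arm, read 75.7, 76.4 and 81.3 in Japanese Black against 41.3, 54.7 and 52.3 in Holstein. Every Japanese Black animal was above every Holstein animal, and the difference was 0.52 (SE 0.16, adjusted p 0.321). ECSIT, which joins the intermediate assembly complex, read 1272, 1101 and 1206 in Japanese Black against 1401, 1413 and 1843 in Holstein. Here the breeds were separated the other way, with a difference of -0.37 (SE 0.16, adjusted p 0.392). The breeds did not overlap for 4 of the 10 genes, 1 higher and 3 lower, against 19.2% of all genes (10.2% higher and 8.96% lower).

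The other respiratory complexes lay near complex I. Of 45 measured genes of complexes II to V 39 had a difference below 0 and 6 above, with a median of -0.07. Of these 0 passed in limma, and 1, COX7A2, had an unadjusted p under 0.05, against 11.3% of all genes tested. Their median deviation was -0.11, -0.19 and 0.19 in Japanese Black 1, 2 and 3, and 0.01, 0.08 and 0.05 in Holstein 1, 2 and 3. By complex the medians were -0.01 for II, -0.08 for III, -0.14 for IV and -0.05 for V. SDHD, a membrane anchor of complex II, read 3900, 3281 and 3942 in Japanese Black against 3820, 3837 and 2506 in Holstein, with Holstein 3 lowest as for NDUFB5 and NDUFS1. COX7A2, a subunit of complex IV, had the largest difference, 0.74 (SE 0.28, adjusted p 0.361), and read 1844, 2868 and 1174 in Japanese Black against 1161, 1046 and 1092 in Holstein. The breeds did not overlap for COX7A2, but Japanese Black 3 lay close to the Holstein animals. SDHD and COX7A2 were both among the 6 genes above 0. The other genes with the smallest unadjusted p in their complex were UQCRC1 (-0.18), UQCRQ (-0.15), COX5B (-0.23), ATP5F1D (-0.25), ATP5PD (-0.24) and SDHAF4 (0.20).

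General markers of mitochondria had 4 genes above 0 and 6 below, with a median of -0.03. Among 7 measured regulators of nuclear genes for mitochondrial proteins 6 had a difference above 0, with a median of 0.30. Of these 0 passed in limma, and 1, PPARGC1A, had an unadjusted p under 0.05, against 11.3% of all genes tested. PPARGC1A encodes a coactivator of nuclear genes for mitochondrial proteins. The brightest of its 4 probe sets read 129, 36.4 and 158 in Japanese Black against 62.8, 33.1 and 17.6 in Holstein, a difference of 1.11 (SE 0.46, adjusted p 0.383). TFB2M is a factor for transcription of the mitochondrial genome. The brighter of its 2 probe sets read 1054, 1206 and 1341 in Japanese Black against 934, 1112 and 630 in Holstein, a difference of 0.45 (SE 0.22, adjusted p 0.424). The breeds overlapped for both, and Holstein 3 was the lowest animal for each. The other probe sets of both genes are not given here. Japanese Black 2, lowest for 22 of 42 complex I genes with the deposited values, had a median deviation of 0.10 over these 7 regulators, and Holstein 3 one of -0.38.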

How the data were processed

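Total RNA from muscle was labelled with biotin and hybridised to Affymetrix arrays, per the labels' protocols. The authors deposited 1 linear intensity per probe set and array. The submitters' processing notes name GCOS 1.1.1 and Affymetrix Expression Console 1.1. How probe signals were summarised and scaled is not stated there. The 112 control probe sets were removed, 16 was added before log2, and the dimmest 25% of the remaining 24016 probe sets were left out. All 18012 others were fitted with limma 3.58.1 in R 4.3.3 (eBayes with an intensity trend, two-sided, Benjamini-Hochberg over all). The design text names a paired test, but the labels give no pairs, so the fit was unpaired, and replicate numbers only name animals. Each sample is labelled as 1 steer, with no further account of sampling. The limma p-values set the breed difference against the spread within breeds over these 6 samples, moderated by that of the other probe sets. With 3 arrays per breed, precision is limited by the number of arrays.

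Symbols came from the platform annotation; all 42 gene identifiers matched RefSeq assembly ARS-UCD2.0 with 0 changed symbols. Lists by role followed textbook knowledge. Members, lists and rules were chosen with earlier results of these data known. Signals per animal are given for the 8 genes per direction with the smallest p, the core subunits, genes whose probe sets lay more than 0.5 apart, NDUFA4 and NDUFA4L2, and for 2 genes or fewer per other list; further probe sets and the genes at the extremes were named after their values were seen. Sequences and promoter motifs were not analysed here. The fit was tested on simulated data. Alternatives were other offsets, filters, scalings, variance models, array weights, a plain t-test, probe set averaging and leaving out each array. Figures used matplotlib 3.10.9 in Python 3.11.15.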

Additional observations from a re-analysis of the deposited data

How the results depend on the processing

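In every setting run, 0 of the 42 NDUF genes passed an adjusted p of 0.05. Over the whole array the number of probe sets that passed was 3, and 0 to 15 in the other settings. An unpaired t-test on the same log2 values gave 1806 probe sets at an unadjusted p under 0.05 and 0 after adjustment. The paired test that the design text names was not run, and no threshold is given for it in the sources used here. No paired analysis was possible because the labels give no pairs of animals. The median difference of the NDUF genes was -0.05, between -0.10 and -0.04 in the other settings on all arrays, and between -0.14 and 0.01 with 1 array left out, so its sign was not the same in every such fit. The count below 0 was 30, with 28 to 33 on all arrays and 20 to 33 with 1 left out. At an unadjusted p under 0.05 there was 1 gene, against 4 after quantile normalization, 3 after median centring, 2 with array weights and 2 with the mean of a gene's probe sets. There were 0 with the dimmer 50% left out, 0 without the intensity trend, 0 in the unpaired t-test and 0 to 6 with 1 array left out. Of all features tested 12.6% were under it in the main setting, 12.5% to 13.8% in the other limma settings named and 7.45% to 14.6% with 1 array left out, and the NDUF share was above that of all features in the fit without Japanese Black 3 alone. Breeds were apart, with no overlap, for 1 gene, against 9 after quantile normalization, 7 after median centring, 6 with the mean of a gene's probe sets and 2 to 20 with 1 array left out. The shares of all genes were 19.2%, 19.3% and 19.9% for the first 3, 19.9% of all features with averaged probe sets, and 24.4% to 33.8% with 1 array left out. Genes near 0 changed sign: NDUFV3 was -0.0011 and NDUFA4 0.049 after quantile normalization, NDUFA7 0.0011 after median centring, NDUFV2 -0.078 with array weights, and NDUFS3 0.74 as the mean of its probe sets, where the dimmer one decides the value. With 1 array left out NDUFA4 ranged from -0.12 to 0.0068, NDUFA4L2 from -0.14 to 0.014, NDUFA7 from -0.13 to 0.087, NDUFS3 from -0.10 to 0.053, NDUFV2 from -0.11 to 0.086 and NDUFV3 from -0.018 to 0.18. The promoter motif comparison was not run. Cause was not tested for any of these changes. Dim signals near the offset limit the NDUFA7 and NDUFA4L2 probe sets.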
